A study of Saccharomyces pastorianus with 18 samples.

Results

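The genes described here encode subunits of the mitochondrial respiratory chain and of the F1Fo ATP synthase in the lager yeast Saccharomyces pastorianus. They were listed by gene name, with earlier results of these data already known. The set holds 3 single-subunit NADH dehydrogenases, 4 subunits of complex II, 9 nuclear subunits of complex III, 8 of complex IV and 13 of the ATP synthase. These 37 genes are 37 of the 7568 genes in the deposited count table, and each is present there in a copy from S. cerevisiae and a copy from S. eubayanus, so that 74 of 11979 features belong to the set. Summed over both copies, all 37 passed the filter on low counts, which kept 6633 genes. In yeast mitochondria electrons enter the chain from matrix NADH through NDI1, from cytosolic NADH through NDE1 and NDE2, and from succinate through complex II (succinate dehydrogenase), because yeast has no proton-pumping complex I. Ubiquinone carries them to complex III, cytochrome c carries them on to complex IV, and complex IV passes them to oxygen. The ATP synthase then uses the proton gradient built by complexes III and IV to make ATP. In Saccharomyces most of these genes are transcribed less when glucose is plentiful and more when the HAP activator is active, and brewing fermentations proceed largely without respiration.

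The study measured total RNA by paired-end sequencing in 2 mutants of S. pastorianus, a hybrid that holds the genomes of S. cerevisiae and S. eubayanus as its sub-genomes. Both mutants were obtained after treatment of the parents W34/70 and CBS1538 with the Hsp90 inhibitor radicicol, followed by selection on toxic analogues of phenylalanine, and each is 1 isolate. W34/70 9.7 and CBS1538 11.1 were each grown in a minimal medium (0.5% ammonium sulfate, 1% dextrose, 1% maltose, 20 °C) and harvested in exponential phase, and in 10% wort with 1 mM ZnSO4 at 13 °C, harvested on day 4 and on day 2. The 6 groups have 3 libraries each. Medium, temperature and growth stage differ together between the minimal medium and the wort groups and cannot be told apart, and no unmutated parent was analysed here. The labels name triplicates without saying that they were separate cultures, so p-values measure the spread between these libraries. In bulk RNA, more RNA per cell and more cells that express a gene cannot be told apart.

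Total counts were 12782267 to 19467656 per library in W34/70 9.7 and 5266324 to 16571345 in CBS1538 11.1. The S. eubayanus copies took 30.0 to 34.9% of the counts in W34/70 9.7 and 88.0 to 89.4% in CBS1538 11.1. The CBS1538 11.1 day 2 libraries are named as the mutant in their titles and as the parental strain in another label, and every comparison with them carries that doubt. On the 496 features of S. eubayanus chromosome VII, W34/70 9.7 had 1417 counts in day 4 replicate 1 and 1465 in day 2 replicate 2, against 284445 to 396506 in its other 7 libraries, and 3 members have their S. eubayanus copy there. Markers of other states are given with the values they move with further on. Subunits encoded in mitochondrial DNA (COB, COX1, COX2, COX3, ATP6, ATP8 and OLI1) summed to between 0 and 9.24 CPM (counts scaled to library size) in all 18 libraries, so the data describe the nuclear-encoded subunits.

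As a share of all counts, the set was largest in W34/70 9.7 in minimal medium and in CBS1538 11.1 on day 4. The 37 genes took 1.66 ± 0.0546% in minimal medium, 1.15 ± 0.193% on day 4 and 0.818 ± 0.0665% on day 2 in W34/70 9.7 (mean ± SD, n = 3 each). In CBS1538 11.1 they took 0.933 ± 0.143% in minimal medium, 1.45 ± 0.156% on day 4 and 0.769 ± 0.0516% on day 2. Day 2 was the lowest group in both strains, and its 3 libraries did not overlap those of the other groups of the same strain except for the CBS1538 11.1 minimal medium libraries, of which the lowest, at 0.786%, lay below the highest day 2 library at 0.826%. The complexes did not move alike. Complex II took 0.082 ± 0.00867% in minimal medium, 0.168 ± 0.0361% on day 4 and 0.171 ± 0.0186% on day 2 in W34/70 9.7, and 0.0868 ± 0.00944% in minimal medium, 0.441 ± 0.0595% on day 4 and 0.182 ± 0.014% on day 2 in CBS1538 11.1. It was lowest in minimal medium in both strains, where complexes III and IV were high. The ATP synthase took 0.707 ± 0.0321% in minimal medium, 0.443 ± 0.0683% on day 4 and 0.411 ± 0.0242% on day 2 in W34/70 9.7, and 0.297 ± 0.0184% in minimal medium, 0.575 ± 0.0729% on day 4 and 0.416 ± 0.0417% on day 2 in CBS1538 11.1. Its highest share was thus in minimal medium in W34/70 9.7 and on day 4 in CBS1538 11.1. Complex IV took 0.294 ± 0.0374% in minimal medium, 0.166 ± 0.0444% on day 4 and 0.0555 ± 0.00268% on day 2 in W34/70 9.7, and 0.119 ± 0.0391% in minimal medium, 0.0944 ± 0.0111% on day 4 and 0.0255 ± 0.00594% on day 2 in CBS1538 11.1, with the order minimal medium, day 4 and day 2 in the means of both strains.

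**Figure D1:**
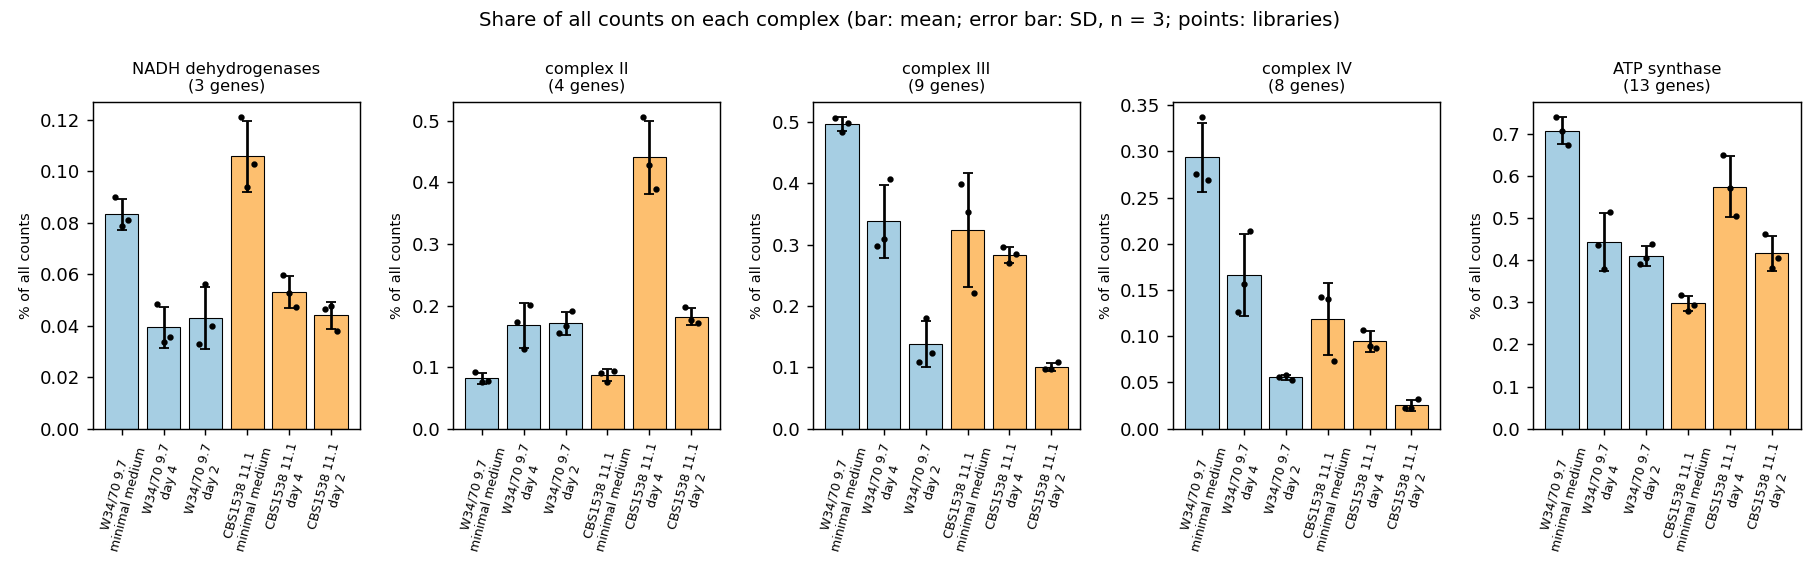
Share of all counts, in percent, taken by the genes of each complex in each library (points) with bars for the group mean and error bars for the SD (n = 3), for the 3 conditions of W34/70 9.7 and CBS1538 11.1. Complex II is the only panel with its lowest share in minimal medium in both strains.

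The heat map of fold changes shows the main pattern gene by gene. On day 4 against day 2, 19 of 37 genes were called higher and 3 lower in W34/70 9.7 by edgeR's quasi-likelihood test at a Benjamini-Hochberg adjusted p under 0.05. Over all genes tested, 20.7% were called higher and 17.0% lower. The median log2 fold change was 0.69 over the 37 genes and 0.07 over all genes. In CBS1538 11.1 the same comparison called 29 higher and 0 lower (17.2% and 14.6% of all genes), with medians of 1.45 and 0. At an unadjusted p under 0.05, 0 genes were lower there, and DESeq2 also called 0 lower. Of the 37 genes, 18 were called higher in both strains. The share of all genes called higher in both was not computed, so this overlap cannot be called particular to the set. Without W34/70 9.7 day 4 replicate 3, the W34/70 9.7 count of higher genes was 12 instead of 19.

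Minimal medium against day 2 called 27 genes higher and 5 lower in W34/70 9.7 (32.8% and 32.1% of all genes) and 25 higher and 4 lower in CBS1538 11.1 (27.3% and 21.2%). The medians over the 37 genes were 1.41 in W34/70 9.7 and 1.29 in CBS1538 11.1, against -0.01 and 0 over all genes. Both strains called 22 of these genes higher and 4 lower. Neither this overlap nor the opposite calls given below were counted over all genes. Minimal medium against day 4 separated the strains. There, 24 genes were higher and 5 lower in W34/70 9.7 (26.1% and 28.6% of all genes), with a median of 0.73 against -0.03. In CBS1538 11.1, 7 were higher and 10 lower (25.2% and 23.0%), with a median of -0.08 against 0. The calls had opposite signs in the 2 strains for 7 genes, namely ATP1, ATP3, ATP4, ATP16, ATP17, COX26 and NDE2. Those of ATP3, ATP4 and COX26 kept both calls whichever single library was left out. In W34/70 9.7, ATP1 (0.81) lost its call without day 4 replicate 2 (0.54 (adjusted p = 0.077)), ATP17 (0.81) without minimal medium replicate 2 or day 4 replicate 1 or 2 (0.57 to 0.66) and ATP16 (0.71) without each of the 6 libraries in turn (0.57 to 0.76). In CBS1538 11.1, ATP16 (-0.85) lost it without minimal medium replicate 2 or day 4 replicate 1 (-0.78 and -0.74), ATP17 (-0.84) without minimal medium replicate 3 (-0.66) and NDE2 without day 4 replicate 3. Without the pair of W34/70 9.7 libraries that lack chromosome VII counts, the W34/70 9.7 calls were 21 higher and 3 lower for day 4 over day 2, 27 higher and 5 lower for minimal medium over day 2 and 22 higher and 6 lower for minimal medium over day 4. Within a strain, the comparisons of minimal medium and of day 4 with day 2 share the day 2 libraries. Without W34/70 9.7 day 4 replicate 2 the W34/70 9.7 count of higher genes was 15 instead of 24, and without CBS1538 11.1 day 4 replicate 3 the CBS1538 11.1 count was 3 instead of 7.

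**Figure D2:**
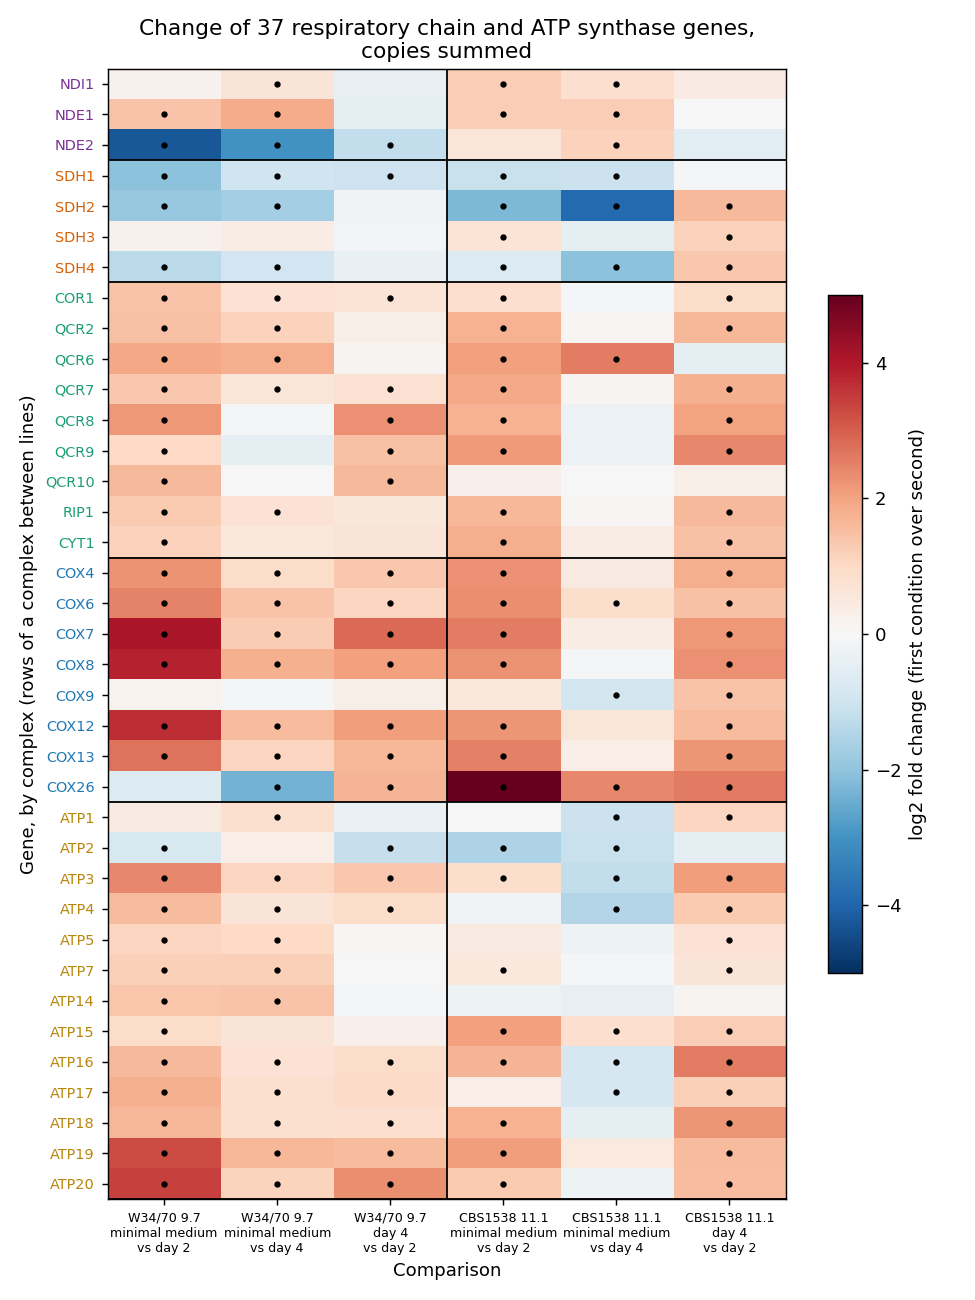
Log2 fold change of each of the 37 genes (rows, by complex) in the 6 comparisons within a strain (columns), copies summed, with calls at an adjusted p under 0.05 marked by dots. Complexes III and IV are higher in most columns, complex II except SDH3 is lower in minimal medium in both strains, and the ATP synthase rows differ between the strains for minimal medium over day 4.

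Most members are short, and short genes as a class moved with the same comparisons. Among 88 genes of up to 300 bases with both copies in the table, the median log2 fold change of day 4 over day 2 in W34/70 9.7 was 0.81, and that of the 10 members of this length was 1.67. In CBS1538 11.1 the values were 0.73 for all 88 and 1.79 for the 10 members. For minimal medium over day 2 they were 1.14 and 1.92 in W34/70 9.7, and 1.19 and 2.06 in CBS1538 11.1. Removing the trend with length, an alternative added after seeing the data, left 13 higher and 5 lower for day 4 over day 2 in W34/70 9.7, 17 and 7 for minimal medium over day 4 in W34/70 9.7, 19 and 9 for minimal medium over day 2 in CBS1538 11.1, and 5 and 18 for minimal medium over day 4 in CBS1538 11.1. The part of gene length in these changes was not tested further. The tests of a strain difference in a change showed little such trend, with medians of 0.03 to 0.05 for the 88 genes.

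The NADH dehydrogenases moved apart from each other. NDE2, at IV:303211-304848 of the S. cerevisiae sub-genome (build R64, + strand), is the less expressed of the external enzymes. NDE2 had 6.24, 5.62 and 4.11 CPM in minimal medium, 28.2, 34.3 and 68.5 CPM on day 4 and 144, 56.4 and 106 CPM on day 2 in W34/70 9.7. All 3 minimal medium libraries lay below every wort library. In CBS1538 11.1, it had 40.02, 34.98 and 41.5 CPM in minimal medium, 18.99, 19.9 and 13.6 CPM on day 4 and 26.6, 30.9 and 19.2 CPM on day 2, with the minimal medium libraries above all others. By edgeR, NDE2 fell in W34/70 9.7 in minimal medium against day 4 (log2 fold change -3.03 ± 0.36, adjusted p = 3.7e-06) and against day 2 (-4.26 ± 0.38, adjusted p = 8.3e-08), and on day 4 against day 2 (-1.23 ± 0.33, adjusted p = 0.0089; with only the 2 compared groups in the fit, -1.29 (adjusted p = 0.061)). In CBS1538 11.1 it rose in minimal medium against day 4 (1.15 ± 0.34, adjusted p = 0.0094), a call lost without CBS1538 11.1 day 4 replicate 3, at 0.93 (adjusted p = 0.067). The difference between the strains in that change was -4.18 ± 0.50, adjusted p = 1.2e-05. NDE1, the major external NADH dehydrogenase, had 538, 545 and 487 CPM in minimal medium, 199, 119 and 111 CPM on day 4 and 107, 273 and 208 CPM on day 2 in W34/70 9.7. In CBS1538 11.1 it had 688, 532 and 709 CPM in minimal medium, 330.3, 262 and 238 CPM on day 4 and 309, 281 and 242 CPM on day 2. Minimal medium was highest in both strains without overlap. NDE1 rose against day 4 by 1.87 ± 0.29 in W34/70 9.7 and by 1.22 ± 0.28 in CBS1538 11.1 on the log2 scale (edgeR adjusted p = 4.3e-05 and 0.0017). NDI1, the matrix-facing enzyme, averaged 237, 152 and 203 CPM in minimal medium, on day 4 and on day 2 in W34/70 9.7, and 404, 228 and 171 CPM in CBS1538 11.1. In minimal medium against day 2 it did not pass in W34/70 9.7 (0.22 ± 0.24, adjusted p = 0.43 by edgeR) and rose in CBS1538 11.1 (1.24 ± 0.24, adjusted p = 0.00041). Against day 4 in CBS1538 11.1 its call (0.83 ± 0.24, adjusted p = 0.0084) was lost without CBS1538 11.1 day 4 replicate 3, at 0.63 (adjusted p = 0.067). On day 4 against day 2 in CBS1538 11.1, none of the 3 enzymes passed, and NDI1 had 0.41 ± 0.24, adjusted p = 0.21.

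SDH1, SDH2 and SDH4 of complex II fell in minimal medium against both wort days in both strains. SDH2 encodes its iron-sulfur subunit and lies at XII:53131-53931 of the S. cerevisiae sub-genome (R64, - strand). SDH2 had 206, 180.0 and 168 CPM in minimal medium, 588, 409 and 813 CPM on day 4 and 553, 574 and 907 CPM on day 2 in W34/70 9.7. Minimal medium was lowest, while day 4 and day 2 overlapped. In CBS1538 11.1, SDH2 had 175, 140.2 and 198 CPM in minimal medium, 3142, 2292 and 2089 CPM on day 4 and 956, 718 and 748 CPM on day 2. The 3 groups did not overlap, with day 4 highest and minimal medium again lowest. SDH2 fell by edgeR in minimal medium against day 4 in W34/70 9.7 (log2 fold change -1.71 ± 0.26, adjusted p = 4.6e-05) and in CBS1538 11.1 (-3.87 ± 0.29, adjusted p = 3.9e-08), and against day 2 in W34/70 9.7 (-1.88 ± 0.27, adjusted p = 1.1e-05) and CBS1538 11.1 (-2.24 ± 0.27, adjusted p = 4.2e-06). On day 4 against day 2 it did not pass in W34/70 9.7 (-0.17 ± 0.26, adjusted p = 0.63) and rose in CBS1538 11.1 (1.64 ± 0.26, adjusted p = 0.00026). SDH1, the flavoprotein subunit, had 201, 148 and 172 CPM in minimal medium, 445, 233 and 367 CPM on day 4 and 625, 757 and 779 CPM on day 2 in W34/70 9.7, where the 3 groups did not overlap. It fell on day 4 against day 2 (-1.05 ± 0.24, adjusted p = 0.003) and in minimal medium against day 2 (-2.05 ± 0.25, adjusted p = 2e-06) and day 4 (-1.01 ± 0.24, adjusted p = 0.0021) by edgeR. In CBS1538 11.1, SDH1 averaged 311 CPM in minimal medium, 657 CPM on day 4 and 679.6 CPM on day 2, and fell in minimal medium against both. SDH1 has a close paralog, and reads shared with it could be counted on either gene. SDH4, a membrane anchor, also fell in minimal medium against day 4, by 0.97 on the log2 scale in W34/70 9.7 and by 2.04 in CBS1538 11.1 (edgeR adjusted p = 0.0051 and 1e-05), the W34/70 9.7 value being -0.64 (adjusted p = 0.042) without W34/70 9.7 day 4 replicate 3. Its fall against day 2 in CBS1538 11.1 (-0.70 ± 0.26, adjusted p = 0.035) was lost without CBS1538 11.1 minimal medium replicate 1 or 2 or day 2 replicate 1 or 2, at adjusted p of 0.052 to 0.14. SDH3, the other membrane anchor, was called lower in none of the comparisons within a strain. On day 4 over day 2 in CBS1538 11.1 it rose (1.15 ± 0.24, adjusted p = 0.0016 by edgeR), as did SDH2 and SDH4 (1.34). Minimal medium over day 4 was 0.37 for SDH3 in W34/70 9.7 and -0.46 in CBS1538 11.1, and neither passed. It was called higher in minimal medium over day 2 in CBS1538 11.1 (0.69 ± 0.24, adjusted p = 0.022), a call lost without each of 3 of the 6 libraries in turn and, at -0.0064 (adjusted p = 1), with the length trend removed.

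Complex III genes rose together in minimal medium against day 2: 9 of 9 were called higher in W34/70 9.7 and 8 of 9 in CBS1538 11.1. Over all genes, 32.8% and 27.3% were called higher. With the length trend removed, 7 of the 9 calls held in W34/70 9.7, where QCR10 was 0.52 (adjusted p = 0.11) and QCR9 -0.055 (adjusted p = 0.87), and 7 of the 8 in CBS1538 11.1. The QCR9 call in W34/70 9.7 (1.01 ± 0.34, adjusted p = 0.016) was also lost without W34/70 9.7 minimal medium replicate 2 or day 2 replicate 2, at 0.72 (adjusted p = 0.11) and 0.83 (adjusted p = 0.064). On day 4 against day 2, 5 of 9 rose in W34/70 9.7 and 7 of 9 in CBS1538 11.1, against 20.7% and 17.2% of all genes. The W34/70 9.7 calls of COR1 (0.69) and QCR7 (0.75) were each lost in 3 of the 6 fits that left out 1 library. No complex III gene was called lower in any comparison within a strain. QCR8, a small subunit that assembles early with cytochrome b, had 337, 459 and 308 CPM in minimal medium, 224, 390.4 and 571 CPM on day 4 and 71.3, 77.9 and 95.4 CPM on day 2 in W34/70 9.7. Day 2 was lowest without overlap, and minimal medium and day 4 overlapped. Its log2 fold changes over day 2 in W34/70 9.7 by edgeR were 2.28 ± 0.31, adjusted p = 9.3e-05 on day 4 and 2.17 ± 0.31, adjusted p = 1.3e-05 in minimal medium. The second was 1.05 (adjusted p = 0.00051) with the length trend removed. QCR2, a core subunit, had 377, 299.7 and 299 CPM in minimal medium, 351, 288 and 280.3 CPM on day 4 and 97.9, 94.3 and 98.99 CPM on day 2 in CBS1538 11.1, with day 2 lowest without overlap. It rose there on day 4 (1.66 ± 0.19, adjusted p = 2.8e-05) and in minimal medium (1.74 ± 0.19, adjusted p = 1.5e-06) against day 2, and rose in W34/70 9.7 in minimal medium (1.45 ± 0.19, adjusted p = 4.2e-06) but did not pass on day 4 (0.28 ± 0.18, adjusted p = 0.24). QCR6, an acidic subunit that binds cytochrome c1, followed another order. It had 962, 1017 and 872 CPM in minimal medium, 319, 233 and 265 CPM on day 4 and 185, 318 and 237 CPM on day 2 in W34/70 9.7, and 526, 661 and 328 CPM in minimal medium, 81.6, 90.8 and 85.9 CPM on day 4 and 149, 83.03 and 131 CPM on day 2 in CBS1538 11.1. Minimal medium was highest in both strains without overlap, and QCR6 rose there against day 4 by 1.80 ± 0.26 in W34/70 9.7 and 2.55 ± 0.27 in CBS1538 11.1 on the log2 scale (edgeR adjusted p = 2.5e-05 and 1.1e-06), the only complex III gene called in that comparison in CBS1538 11.1. QCR9, a small subunit, rose most in CBS1538 11.1: its log2 fold changes by edgeR were 2.42 ± 0.36, adjusted p = 0.00014 on day 4 and 2.13 ± 0.35, adjusted p = 9.6e-05 in minimal medium over day 2, the second 1.01 (adjusted p = 0.0054) with the length trend removed. The S. eubayanus copy of QCR9 lies on chromosome VII and had 0 counts in the pair of W34/70 9.7 libraries without chromosome VII counts. The remaining complex III genes, COR1, QCR7, QCR10, RIP1 (the Rieske iron-sulfur protein) and CYT1 (cytochrome c1), had log2 fold changes of 0.27 to 1.90 in minimal medium over day 2 in the 2 strains.

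Complex IV had the largest median fold changes over day 2 of the 5 groups of genes in both strains. Its genes are short, at 180 to 645 bases, and the part of gene length in this ranking was not tested. On day 4, 7 of 8 genes rose in W34/70 9.7 and 8 of 8 in CBS1538 11.1 (20.7% and 17.2% of all genes). In minimal medium 6 and 7 of 8 rose (32.8% and 27.3% of all genes). With the length trend removed, 5 of the 7 and 7 of the 8 calls on day 4 held, and all 6 and all 7 in minimal medium. COX8, a small membrane subunit, had 353, 467 and 368 CPM in minimal medium, 82.9, 111 and 151 CPM on day 4 and 28.6, 35.8 and 18.6 CPM on day 2 in W34/70 9.7. The 3 groups did not overlap. In CBS1538 11.1, COX8 had 75.8, 89.3 and 43.5 CPM in minimal medium, 104, 57.99 and 56.9 CPM on day 4 and 14.5, 13.96 and 15.8 CPM on day 2, where minimal medium and day 4 overlapped and both lay above day 2. By edgeR, COX8 rose in W34/70 9.7 in minimal medium against day 2 (log2 fold change 3.84 ± 0.34, adjusted p = 6.3e-08) and against day 4 (1.79 ± 0.31, adjusted p = 0.00012). In CBS1538 11.1 it rose on day 4 against day 2 (2.30 ± 0.32, adjusted p = 9.8e-05, or 1.51 (adjusted p = 0.0003) with the length trend removed), and minimal medium over day 4 was -0.068 ± 0.30, adjusted p = 0.97. COX7, another small membrane subunit, averaged 235, 97.3 and 13.7 CPM in minimal medium, on day 4 and on day 2 in W34/70 9.7, and rose over day 2 on day 4 (2.82 ± 0.39, adjusted p = 9.3e-05) and in minimal medium (4.10 ± 0.41, adjusted p = 2.7e-07). COX26, a small protein of respiratory supercomplexes (IV:691014-691214 in the S. cerevisiae sub-genome, R64, + strand), moved in opposite directions in the strains. COX26 had 17.3, 36.5 and 8.27 CPM in minimal medium, 65.02, 58.5 and 199.6 CPM on day 4 and 31.7, 31.9 and 35.6 CPM on day 2 in W34/70 9.7. Day 4 was highest, with replicate 3 far above the other day 4 libraries, and minimal medium and day 2 overlapped. In CBS1538 11.1, it had 105, 128 and 85.9 CPM in minimal medium, 25.7, 18.5 and 16.6 CPM on day 4 and 1.10, 3.67 and 4.57 CPM on day 2. Here minimal medium was highest, and the 3 groups did not overlap. In minimal medium over day 4 COX26 fell in W34/70 9.7 (log2 fold change -2.38 ± 0.50, adjusted p = 0.00071) and rose in CBS1538 11.1 (2.39 ± 0.50, adjusted p = 0.00075) by edgeR. The difference between the strains was -4.78 ± 0.71, adjusted p = 0.00011. On day 4 over day 2 it rose in W34/70 9.7 (1.70 ± 0.49, adjusted p = 0.012) and in CBS1538 11.1 (2.61 ± 0.57, adjusted p = 0.0023), the W34/70 9.7 call being lost without W34/70 9.7 day 4 replicate 3, at 0.82 (adjusted p = 0.15). COX9, a membrane subunit, stood out in the other way: it averaged 362, 387 and 319.7 CPM in minimal medium, on day 4 and on day 2 in W34/70 9.7, and was called in none of the comparisons within W34/70 9.7.

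**Figure D3:**
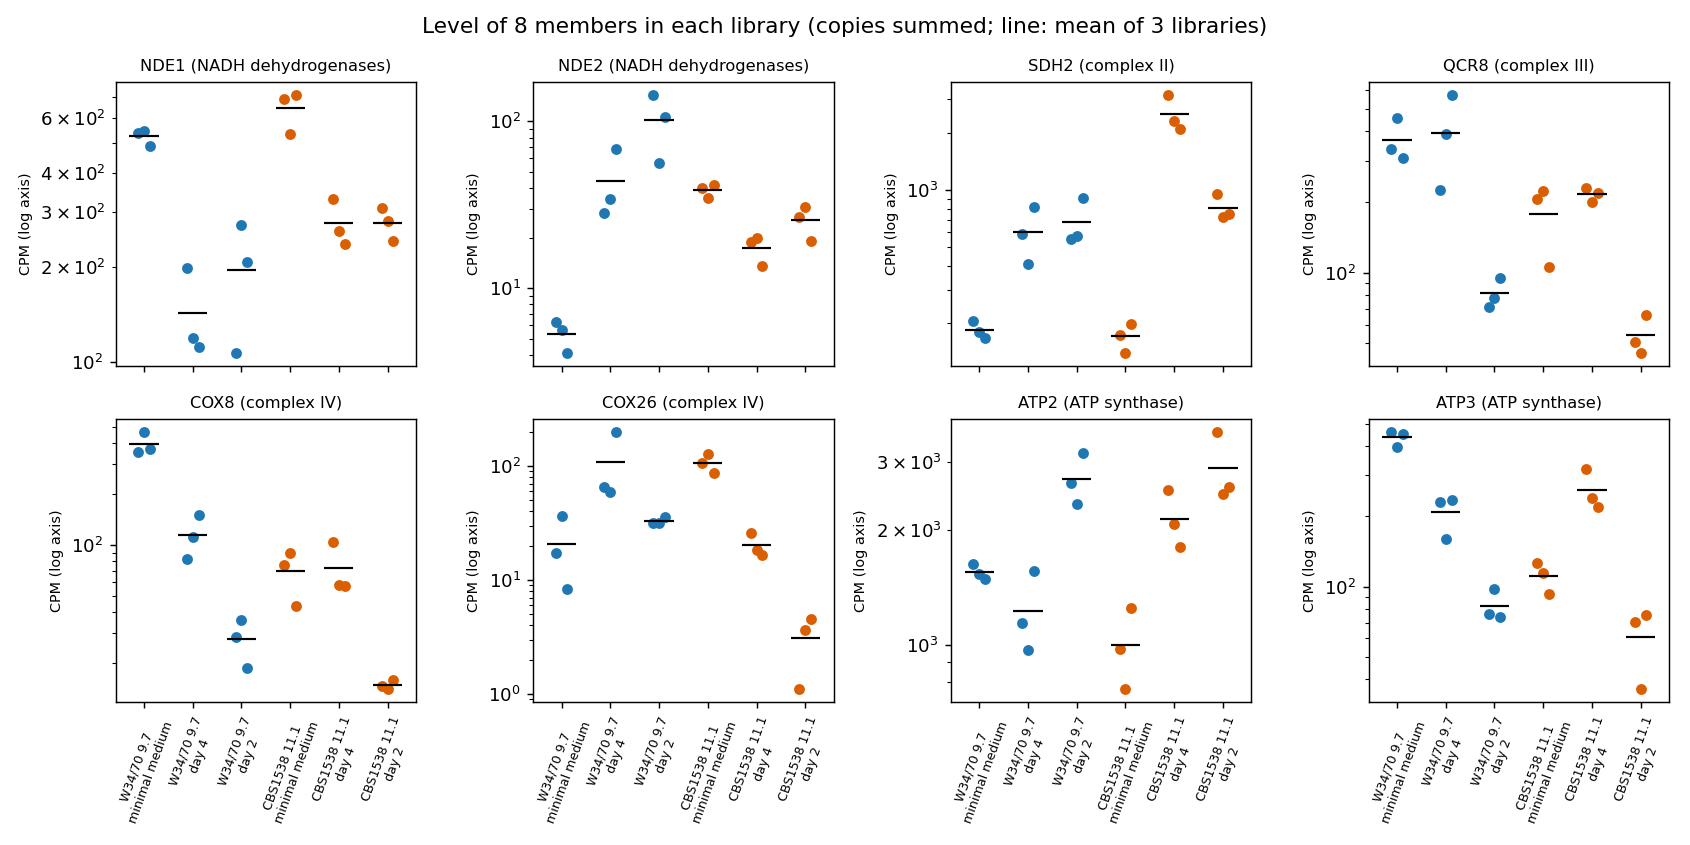
CPM on a log axis in each of the 18 libraries (points, with a line at the mean of each group) for 8 genes: NDE1, NDE2, SDH2, QCR8, COX8, COX26, ATP2 and ATP3. NDE2 is lowest in minimal medium in W34/70 9.7 and highest there in CBS1538 11.1, COX26 is highest on day 4 in W34/70 9.7 and in minimal medium in CBS1538 11.1, and SDH2 is lowest in minimal medium in both strains.

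The ATP synthase split the strains most clearly. In minimal medium over day 4, 11 of its 13 genes were called higher and 0 lower in W34/70 9.7, whereas 1 was higher and 6 lower in CBS1538 11.1. Over all genes, 26.1% were called higher and 28.6% lower in W34/70 9.7, and 25.2% and 23.0% in CBS1538 11.1. With the length trend removed, 7 of the 11 W34/70 9.7 calls held and those of ATP4, ATP16, ATP17 and ATP18 were lost, at 0.28 to 0.38. Leaving out single libraries also ended the W34/70 9.7 calls of ATP1, ATP16 and ATP17, as given above, and that of ATP18 (0.81) without minimal medium replicate 2 or day 4 replicate 2, at 0.53 (adjusted p = 0.14) and 0.64 (adjusted p = 0.092). On day 4 over day 2, 7 of the 13 genes were higher and 1 lower in W34/70 9.7 (20.7% and 17.0% of all genes). In CBS1538 11.1, 11 were higher (17.2% of all genes). ATP4, the b subunit of the stator stalk (XVI:408010-408744 in the S. cerevisiae sub-genome, R64, - strand), had 433, 483 and 404 CPM in minimal medium, 235, 249.7 and 349.6 CPM on day 4 and 153, 129 and 158 CPM on day 2 in W34/70 9.7. The 3 groups did not overlap, with minimal medium highest. In CBS1538 11.1, ATP4 had 128, 112 and 112 CPM in minimal medium, 371, 309 and 301 CPM on day 4 and 129.8, 106 and 157 CPM on day 2. Day 4 was highest without overlap. Minimal medium over day 4 was 0.66 ± 0.18, adjusted p = 0.0055 in W34/70 9.7 (0.36 (adjusted p = 0.067) with the length trend removed) and -1.48 ± 0.19, adjusted p = 6e-06 in CBS1538 11.1 on the log2 scale by edgeR, and the difference between the strains was 2.14 ± 0.26, adjusted p = 1.5e-05. ATP3, the gamma subunit of the rotor, had 462, 397 and 453 CPM in minimal medium, 229.6, 160.5 and 236 CPM on day 4 and 75.9, 97.7 and 74.1 CPM on day 2 in W34/70 9.7, and 127, 114 and 92.96 CPM in minimal medium, 318, 240.2 and 219 CPM on day 4 and 70.2, 36.2 and 75.6 CPM on day 2 in CBS1538 11.1. Minimal medium over day 4 was 1.07 ± 0.24, adjusted p = 0.0014 in W34/70 9.7 and -1.22 ± 0.25, adjusted p = 0.00053 in CBS1538 11.1, and the difference between the strains was 2.29 ± 0.35, adjusted p = 0.00013. ATP1, the alpha subunit, averaged 1199.5 CPM in minimal medium and 686 CPM on day 4 in W34/70 9.7, and 696 and 1478 CPM in CBS1538 11.1, with a strain difference in the change of 1.89 ± 0.35, adjusted p = 0.00074. The S. cerevisiae copies of ATP1 and ATP14 overlap YBL100C and YLR294C, and as the use of strand in counting is not stated, reads of those genes cannot be separated from theirs. ATP2, the catalytic beta subunit, was the only ATP synthase gene called lower against day 2 within a strain. It had 1622, 1533 and 1485 CPM in minimal medium, 1137, 967 and 1562 CPM on day 4 and 2650.3, 2329.8 and 3168 CPM on day 2 in W34/70 9.7, with day 2 highest without overlap. By edgeR ATP2 fell there on day 4 (-1.15 ± 0.24, adjusted p = 0.0015; -0.71 (adjusted p = 0.0057) scaled by library totals) and in minimal medium (-0.81 ± 0.24, adjusted p = 0.0062; -0.45 (adjusted p = 0.042) by library totals), and fell in minimal medium over day 2 in CBS1538 11.1 (-1.53 ± 0.24, adjusted p = 5.4e-05). The small membrane subunits ATP20 and ATP19 had the largest rises in minimal medium over day 2 in W34/70 9.7. ATP20, the g subunit of the dimer interface, averaged 152, 71.2 and 14.3 CPM in minimal medium, on day 4 and on day 2 in W34/70 9.7, and rose over day 2 by 3.41 ± 0.29 in minimal medium and by 2.32 ± 0.28 on day 4 on the log2 scale (edgeR adjusted p = 4.9e-08 and 5.3e-05). ATP19, the k subunit, rose in minimal medium over day 4 in W34/70 9.7 (1.67 ± 0.33, adjusted p = 0.00046) and over day 2 in CBS1538 11.1 (2.07 ± 0.34, adjusted p = 9.6e-05, or 0.86 (adjusted p = 0.016) with the length trend removed). ATP7, the d subunit of the stator, rose over day 4 in W34/70 9.7 (1.19 ± 0.21, adjusted p = 0.00013, or 0.76 (adjusted p = 0.0039) with the length trend removed). ATP16, the delta subunit of the rotor, rose in CBS1538 11.1 on day 4 over day 2 (2.54 ± 0.31, adjusted p = 4.2e-05) and averaged 192 CPM on day 4 and 32.8 CPM on day 2. The lone ATP synthase gene called higher in minimal medium over day 4 in CBS1538 11.1 was ATP15, the epsilon subunit (0.83 ± 0.31, adjusted p = 0.038), and that call was lost without CBS1538 11.1 minimal medium replicate 1 or 2 or day 4 replicate 2 or 3, at log2 fold changes of 0.60 to 0.78. In the same comparison COX6, a complex IV subunit, had 0.86 ± 0.28, adjusted p = 0.018 and lost its call without CBS1538 11.1 minimal medium replicate 1 or day 4 replicate 2 or 3, at 0.64 to 0.75.

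Per length, subunits of a complex did not have equal RNA levels. In W34/70 9.7 minimal medium the median level per kilobase was 1395 CPM per kb for complex IV, 782 for the ATP synthase, 683 for complex III, 272 for complex II and 153 for the NADH dehydrogenases. On day 2 in W34/70 9.7 the same medians were 136, 328, 286, 582 and 116 CPM per kb. In W34/70 9.7, complex II had the highest median on day 2, and complex IV in minimal medium. In CBS1538 11.1 minimal medium, complex III had the highest, at 626 CPM per kb, against 493 for complex IV. Within the ATP synthase the members ranged from 437 to 2595 CPM per kb in minimal medium and from 41.01 to 1768 on day 2 in W34/70 9.7. In CBS1538 11.1 they ranged from 95.8 to 1032 CPM per kb in minimal medium, from 113 to 1409 on day 4 and from 39.1 to 1881 on day 2. The ratio of highest to lowest within the complex was largest on day 2 in both strains. Averaged over the copies, complex IV genes are 180 to 645 bases long and complex II genes 546 to 1923. In W34/70 9.7, minimal medium over day 2 had a median log2 fold change of 1.14 over all paired genes up to 300 bases. Over those of 1001 to 2000 bases it was 0.06. The part of gene length in these rankings and ranges was not tested.

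Between the strains, the set was higher in W34/70 9.7 in minimal medium. There 25 genes were called higher and 5 lower than in CBS1538 11.1 by edgeR (41.0% and 28.4% of all genes), including 13 of 13 ATP synthase genes higher, with a median log2 fold change of 0.94 against 0.26 over all genes. With the length trend removed, 17 were higher and 8 lower, and 10 of the 13 ATP synthase calls held. ATP4 (log2 fold change 1.91 ± 0.19, adjusted p = 9.4e-08) and ATP20 (2.19 ± 0.27, adjusted p = 1.8e-06) led the ATP synthase, COX8 (2.51 ± 0.32, adjusted p = 1.9e-06) complex IV and QCR7, a subunit needed for complex III assembly (1.48 ± 0.23, adjusted p = 1.9e-05, or 0.84 (adjusted p = 0.00019) with the length trend removed), complex III. The genes lower in W34/70 9.7 were NDE2 (-2.86 ± 0.36, adjusted p = 2.1e-06), COX26 (-2.37 ± 0.50, adjusted p = 0.00046), SDH1 (-0.84 ± 0.24, adjusted p = 0.005), NDI1 (-0.77 ± 0.24, adjusted p = 0.0085) and CYT1 (-0.66 ± 0.28, adjusted p = 0.043). The CYT1 call was lost without W34/70 9.7 minimal medium replicate 2 or 3 or CBS1538 11.1 minimal medium replicate 1, at -0.45 to -0.71. The calls of QCR2, ATP1, ATP2 and ATP19 each depended on 1 or more single libraries in the same way. On day 4, 10 genes were higher and 12 lower in W34/70 9.7 (41.7% and 26.6% of all genes), with medians of -0.01 and 0.30. With library totals the split was 14 higher and 8 lower, and with the length trend removed 3 higher and 20 lower, so no direction of the set as a whole holds there. SDH2 was lower in W34/70 9.7 (-2.05 ± 0.27, adjusted p = 3e-06), as was ATP1 (-1.11 ± 0.25, adjusted p = 0.00077). Among the 12 lower genes, NDI1 lost its call in 4 of the 6 fits that left out 1 library, SDH3 in 2, and QCR2, CYT1 and ATP14 in 1 each. The lower count was 8 without W34/70 9.7 day 4 replicate 2, 9 without CBS1538 11.1 day 4 replicate 1 and 14 without W34/70 9.7 day 4 replicate 3. QCR6 (1.66 ± 0.26, adjusted p = 2.6e-05), ATP15 (1.41 ± 0.32, adjusted p = 0.00081), COX26 (2.41 ± 0.50, adjusted p = 0.00041) and NDE2 (1.32 ± 0.34, adjusted p = 0.0024) were higher, the last 3 at 0.52 (adjusted p = 0.1) for ATP15 with the length trend removed, 1.57 (adjusted p = 0.0043) for COX26 and 0.80 (adjusted p = 0.034) for NDE2 without W34/70 9.7 day 4 replicate 3. Of the other 6 higher genes, QCR7 kept its call whichever single library was left out (1.00 ± 0.22, adjusted p = 0.00081) but not with the length trend removed (0.30 (adjusted p = 0.11)), while QCR8, QCR10, COX9, COX12 and ATP20 lost theirs without W34/70 9.7 day 4 replicate 3, at 0.43 to 0.68. Without that library 5 genes were called higher instead of 10. On day 2, 15 genes were higher and 1 lower in W34/70 9.7 (38.5% and 23.4% of all genes), with medians of 0.30 and 0.25, and 9 were higher and 6 lower with the length trend removed. Without the pair of W34/70 9.7 libraries that lack chromosome VII counts, 13 were higher and 3 lower. ATP15 (2.37 ± 0.33, adjusted p = 9.4e-06), COX9 (2.05 ± 0.30, adjusted p = 1.3e-05), QCR7 (2.01 ± 0.23, adjusted p = 8.9e-07), COX26 (3.32 ± 0.57, adjusted p = 8.1e-05) and NDE2 (2.00 ± 0.35, adjusted p = 8.9e-05) were the leading genes. With the length trend removed, ATP15 was 1.43 (adjusted p = 0.00037), COX9 1.13 (adjusted p = 0.00014) and QCR7 1.34 (adjusted p = 1.8e-06). SDH3 (0.65 ± 0.24, adjusted p = 0.024) led complex II and lost its call without W34/70 9.7 day 2 replicate 1 or 2 or CBS1538 11.1 day 2 replicate 2 or 3, and ATP14, the gene that was lower (-0.71 ± 0.27, adjusted p = 0.029), lost it without W34/70 9.7 day 2 replicate 2 or 3 or CBS1538 11.1 day 2 replicate 1 (-0.30).

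Whether a change differed between strains was tested directly. For minimal medium over day 4, 15 of 37 genes had a larger log2 fold change in W34/70 9.7 than in CBS1538 11.1 and 2 a smaller one, where 10.5% and 13.7% of all genes were called in these directions. Of the 13 ATP synthase genes, 11 were among the 15. ATP3 (2.29 ± 0.35, adjusted p = 0.00013), ATP4 (2.14 ± 0.26, adjusted p = 1.5e-05) and SDH2 (2.16 ± 0.37, adjusted p = 0.00039) had the largest positive differences, and COX26 (-4.78 ± 0.71, adjusted p = 0.00011) and NDE2 (-4.18 ± 0.50, adjusted p = 1.2e-05) were negative. SDH2 fell in both strains, so its positive difference is a smaller fall in W34/70 9.7. The scatter plot of the 2 strains' changes shows the ATP synthase genes below the diagonal, except ATP15 (0.63 in W34/70 9.7 and 0.83 in CBS1538 11.1), which lies above it. For minimal medium over day 2, 9 genes had a positive and 4 a negative difference (12.4% and 16.4% of all genes), with 13 and 2 under library totals and 9 and 2 with only the compared groups in the fit. ATP20 (2.12 ± 0.39, adjusted p = 0.00056) and ATP4 (1.75 ± 0.26, adjusted p = 8e-05) were positive, and COX26 (-5.68 ± 0.76, adjusted p = 2.8e-05) and NDE2 (-4.86 ± 0.50, adjusted p = 1.8e-06) negative. The negative count was 2 instead of 4 without W34/70 9.7 minimal medium replicate 2 or 3, CBS1538 11.1 minimal medium replicate 1 or CBS1538 11.1 day 2 replicate 3. For day 4 over day 2, 0 genes had a positive and 8 a negative difference (5.32% and 5.35%), among them SDH2 (-1.80 ± 0.37, adjusted p = 0.0063), SDH4 (-1.70 ± 0.37, adjusted p = 0.0098) and QCR2 (-1.38 ± 0.26, adjusted p = 0.0051). At an unadjusted p under 0.05, 1 gene had a positive difference, and DESeq2 called 1 positive and 11 negative. Without the pair of W34/70 9.7 libraries that lack chromosome VII counts the calls were 2 positive and 8 negative. The 8 negative calls became 5 without W34/70 9.7 day 4 replicate 2 or day 2 replicate 1, 4 without CBS1538 11.1 day 4 replicate 1, and 4 with only the compared groups in the fit. With library totals the split was 1 positive and 5 negative.

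**Figure D4:**
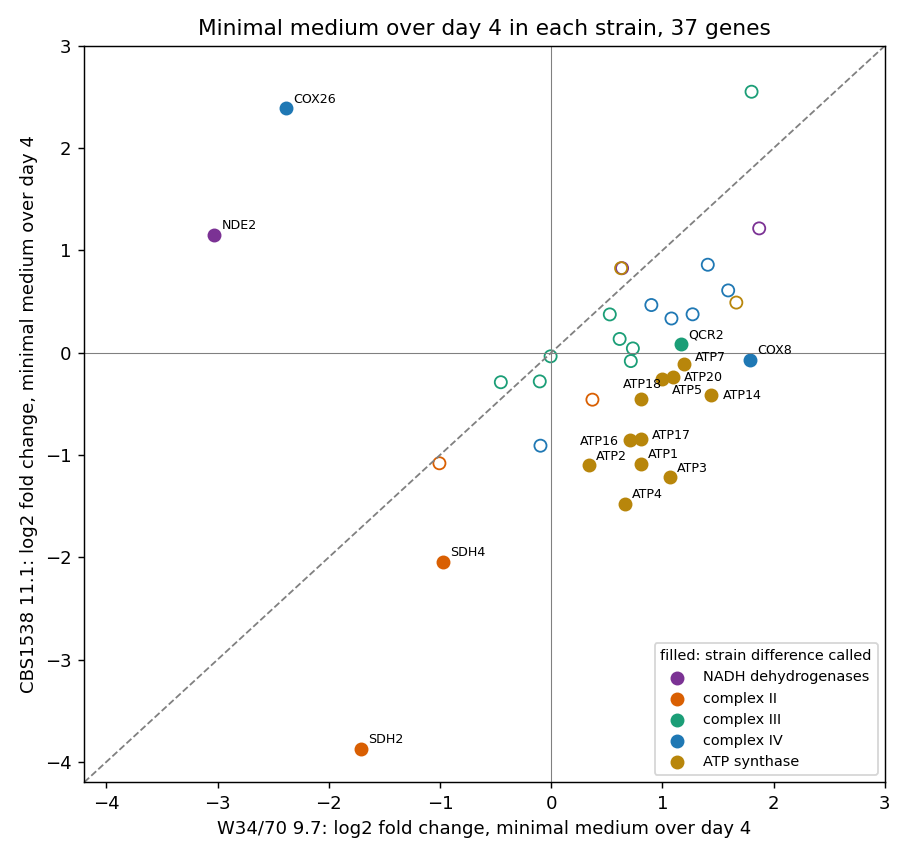
Log2 fold change of minimal medium over day 4 in W34/70 9.7 (x) and CBS1538 11.1 (y) for the 37 genes, coloured by complex and filled where the difference between the strains passed the test. The labelled ATP synthase genes lie below the dashed line of equal change, and COX26 and NDE2 are the filled points above it.

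The copies of each gene were also counted apart. In W34/70 9.7, 37 of 37 S. cerevisiae copies reached 1 CPM over the 9 libraries of the strain, and 32 of 37 S. eubayanus copies did, the exceptions being ATP15, COX4, COX13, SDH1 and SDH3. In CBS1538 11.1, 35 S. eubayanus copies reached it, all except COX4 and COX13, but only 8 S. cerevisiae copies did (ATP2, ATP7, COX4, COX13, QCR8, RIP1, SDH1 and SDH3), and 15 had 0 counts, which allows at most 0.0296 CPM at 3 counts over the strain. The CBS1538 11.1 values above thus mostly rest on the S. eubayanus copy, and strain comparisons set the sum of 2 copies against mostly 1. Reads that match both copies may be counted on either. Of the 72 copies tested, W34/70 9.7 had 31 higher and 5 lower on day 4 over day 2, 48 and 6 in minimal medium over day 2, and 32 and 7 in minimal medium over day 4. Among all features, 16.1% and 12.5%, 28.8% and 27.0%, and 20.2% and 23.0% were called in the same comparisons. CBS1538 11.1 had 27 and 0, 22 and 5, and 7 and 11, against 7.85% and 8.21%, 13.7% and 15.4%, and 13.4% and 14.8% of all features. No gene had its copies called in opposite directions. The W34/70 9.7 count of 31 was 19 without day 4 replicate 3, and that of 32 was 21 without day 4 replicate 2. The CBS1538 11.1 counts of 7 and 11 ranged from 2 to 11 and down to 7 as single libraries were left out.

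In W34/70 9.7 the ratio of the copies could be tested for 32 of the 37 genes, with both copies from the same library. In minimal medium over day 2 the S. cerevisiae share was called higher for 8 genes and lower for 4 (17.5% and 9.91% of 4036 gene pairs). SDH2 had the largest called change. Its S. cerevisiae copy had 112, 112 and 88.4 CPM in minimal medium, 81.3, 94.7 and 181 CPM on day 4 and 138, 80.1 and 181 CPM on day 2. Its S. eubayanus copy had 93.7, 68.2 and 79.4 CPM in minimal medium, 507, 315 and 632 CPM on day 4 and 415, 494 and 726 CPM on day 2. The fall of SDH2 in minimal medium thus stood in the S. eubayanus copy, while the S. cerevisiae copy overlapped between the groups. The S. eubayanus share was 45.5, 37.9 and 47.3% in minimal medium, 86.2, 76.9 and 77.7% on day 4 and 75.00, 86.1 and 80.04% on day 2. The log2 change of the S. cerevisiae to S. eubayanus ratio by edgeR was 2.43 ± 0.35, adjusted p = 0.008 for minimal medium over day 4 and 2.45 ± 0.35, adjusted p = 0.0032 for minimal medium over day 2. NDE1 changed in the same direction. Its S. cerevisiae copy had 396, 414 and 354 CPM in minimal medium, 99.7, 56.3 and 54.2 CPM on day 4 and 46.7, 118 and 58.4 CPM on day 2, and its S. eubayanus copy 142, 131 and 132 CPM in minimal medium, 99.3, 62.4 and 57.2 CPM on day 4 and 60.01, 155 and 149 CPM on day 2. Over day 2 the rise of NDE1 in minimal medium stood in the S. cerevisiae copy, while the S. eubayanus copy overlapped between these groups (ratio change by edgeR 2.22 ± 0.27, adjusted p = 0.0018). Over day 4 both copies were higher in minimal medium without overlap. QCR6 (1.51 ± 0.17, adjusted p = 0.0013), ATP14 (1.48 ± 0.30, adjusted p = 0.0097) and NDI1 (0.88 ± 0.16, adjusted p = 0.0061) had a higher S. cerevisiae share too, and RIP1 a lower one (-0.69 ± 0.12, adjusted p = 0.0055). These 6 kept their calls over day 2 whichever single library was left out, whereas NDE2, SDH4, QCR2, COX9, ATP4 and ATP19 lost theirs without 4 or more of the 6 libraries, and the counts of called genes ranged from 6 to 13. On day 4 over day 2, 5 genes had a higher S. cerevisiae share and 0 a lower one (7.33% and 1.98% of all pairs): QCR6, NDI1, QCR10, ATP14 and ATP19. QCR6 (1.50 ± 0.17, adjusted p = 0.0069) kept its call whichever single library was left out, and the other 4 did not, so that 1 to 4 genes were called. Without the pair of libraries that lack chromosome VII counts, 7 genes had a higher share and 1 a lower one. In minimal medium over day 4, the share was higher for NDE1, SDH2, COX26 and ATP4 and lower for NDE2 (5.72% and 6.89% of all pairs). SDH2 kept its call throughout, NDE1 lost it without 2 of 6 libraries, and the calls of the other 3 were lost without 3 or more, leaving 1 to 4. At an unadjusted p under 0.05, 12, 18 and 10 of the 32 genes differed on day 4 over day 2, in minimal medium over day 2 and in minimal medium over day 4. The share of all 4036 pairs at that threshold was not computed, so these counts cannot be read as a trait of the set.

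**Figure D5:**
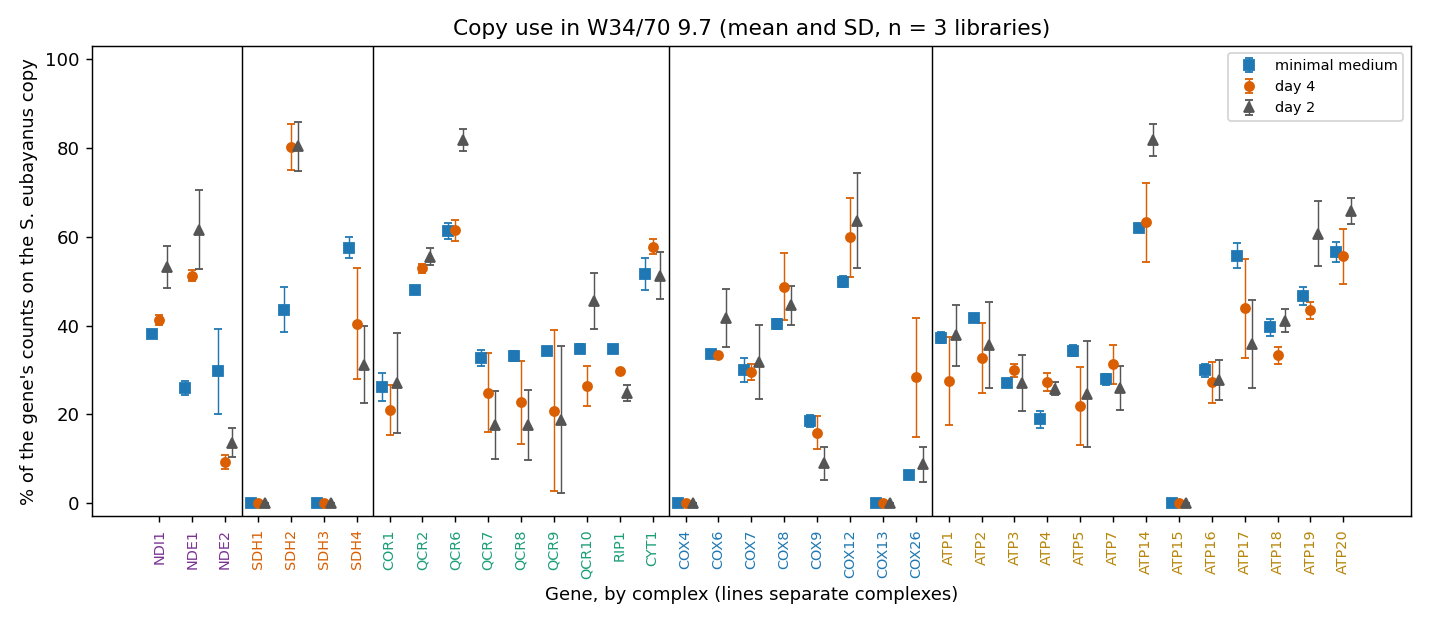
S. eubayanus share of the summed counts of a gene, in percent, on the y axis for each of the 37 genes (x axis, by complex) in W34/70 9.7, with points at the mean and bars for the SD of 3 libraries in minimal medium, on day 4 and on day 2. SDH2 lies near 43.6% in minimal medium, against 80.2% on day 4 and 80.4% on day 2.

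Among genes next to the chain in the pathway, the isoforms of cytochrome c and COX5 moved in different directions. CYC1, the main isoform of cytochrome c, had 1580.2, 1823 and 1609.6 CPM in minimal medium, 155, 164 and 193 CPM on day 4 and 99.5, 151 and 83.8 CPM on day 2 in W34/70 9.7, and 481, 479 and 333 CPM in minimal medium, 124, 93.3 and 90.8 CPM on day 4 and 35.4, 26.02 and 36.8 CPM on day 2 in CBS1538 11.1. Minimal medium was highest in both strains without overlap, and CYC1 rose over day 2 by 3.91 ± 0.25 in W34/70 9.7 and 3.72 ± 0.25 in CBS1538 11.1 on the log2 scale (edgeR adjusted p = 2.7e-09 and 1.5e-08). COX5A, the isoform of the COX5 subunit used in air, rose over day 2 in both strains in minimal medium (1.97 ± 0.21, adjusted p = 6.2e-07 in W34/70 9.7, 1.86 ± 0.21, adjusted p = 2.5e-06 in CBS1538 11.1). COX5B and CYC7, the isoforms used at low oxygen, separated the strains. COX5B had 9.87, 12.9 and 7.84 CPM in minimal medium, 185, 274 and 336 CPM on day 4 and 238, 156 and 255 CPM on day 2 in W34/70 9.7, and 64.3, 76.2 and 64.1 CPM in minimal medium, 91.1, 101 and 103 CPM on day 4 and 81.4, 87.3 and 139 CPM on day 2 in CBS1538 11.1. COX5B fell in minimal medium over day 2 in W34/70 9.7 (-4.41 ± 0.29, adjusted p = 3.8e-09) and did not pass in CBS1538 11.1 (-0.59 ± 0.26, adjusted p = 0.065), with a strain difference of -3.82 ± 0.37, adjusted p = 1e-06. CYC7 fell in W34/70 9.7 (-2.37 ± 0.31, adjusted p = 4.1e-06) and rose in CBS1538 11.1 (2.21 ± 0.30, adjusted p = 1.5e-05), with a strain difference of -4.58 ± 0.43, adjusted p = 6.6e-07. HAP4, the regulated subunit of the HAP activator of respiratory genes, rose on day 4 over day 2 in W34/70 9.7 (1.15 ± 0.27, adjusted p = 0.0032) and CBS1538 11.1 (1.35 ± 0.27, adjusted p = 0.0012), and fell in minimal medium over day 4 in W34/70 9.7 (-1.69 ± 0.27, adjusted p = 6.1e-05) and CBS1538 11.1 (-1.97 ± 0.27, adjusted p = 1.5e-05). ROX1, a repressor of hypoxic genes, fell in minimal medium over day 4 in W34/70 9.7 (-0.88 ± 0.29, adjusted p = 0.015) and rose in CBS1538 11.1 (1.00 ± 0.29, adjusted p = 0.0079). Of the 12 regulators, 2 were called higher and 8 lower in minimal medium over day 4 in W34/70 9.7, and 5 higher and 5 lower in CBS1538 11.1. Over day 2 they were 2 and 6 in W34/70 9.7 and 4 and 2 in CBS1538 11.1, and on day 4 over day 2 they were 4 and 2 in W34/70 9.7 and 2 and 3 in CBS1538 11.1. Over all genes, the shares called higher and lower in W34/70 9.7 were 26.1% and 28.6%, 32.8% and 32.1%, and 20.7% and 17.0% in the same order of comparisons. In CBS1538 11.1 those shares were 25.2% and 23.0%, 27.3% and 21.2%, and 17.2% and 14.6%. MGA2, a regulator of OLE1, fell in W34/70 9.7 in minimal medium over day 4 (-3.13 ± 0.17, adjusted p = 7.8e-10), as did the haem-dependent activator HAP1 (-1.55 ± 0.16, adjusted p = 9.9e-07). In CBS1538 11.1, HAP1 fell over day 2 (-1.42 ± 0.16, adjusted p = 2.4e-06), as did the sterol regulator UPC2 (-2.41 ± 0.27, adjusted p = 1.7e-06).

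Assembly factors and other partners of the complexes are given as counts, to be read beside the shares of all genes called higher and lower. On day 4 over day 2, in minimal medium over day 2 and in minimal medium over day 4, those were 20.7% and 17.0%, 32.8% and 32.1%, and 26.1% and 28.6% in W34/70 9.7, and 17.2% and 14.6%, 27.3% and 21.2%, and 25.2% and 23.0% in CBS1538 11.1. Of 18 genes for assembly and regulation of the ATP synthase, 12 higher and 1 lower were called on day 4 over day 2 in W34/70 9.7, 9 higher and 3 lower in minimal medium over day 2 and 6 higher and 3 lower in minimal medium over day 4. In CBS1538 11.1 the calls were 8 higher and 0 lower, 6 higher and 4 lower, and 4 higher and 5 lower in the same order. TIM11, the e subunit of the ATP synthase dimer, rose in minimal medium over day 2 by 3.87 ± 0.28 in W34/70 9.7 and 2.25 ± 0.27 in CBS1538 11.1 on the log2 scale (edgeR adjusted p = 9.2e-09 and 4.5e-06). NCA3 fell in W34/70 9.7 (-3.62 ± 0.33, adjusted p = 1e-07). Of 30 complex IV assembly genes, the same comparisons called 12 higher and 5 lower, 12 higher and 8 lower, and 3 higher and 6 lower in W34/70 9.7, and 7 higher and 8 lower, 8 higher and 9 lower, and 5 higher and 8 lower in CBS1538 11.1. The copper chaperone COX17 rose in minimal medium over day 2 in W34/70 9.7 (2.02 ± 0.28, adjusted p = 1e-05), where SCO1, which inserts copper into complex IV, fell (-1.10 ± 0.17, adjusted p = 2.2e-05). In CBS1538 11.1, OXA1, an inner membrane insertase, rose in minimal medium over day 4 (2.16 ± 0.25, adjusted p = 2.3e-06). Of the 10 complex III assembly genes tested, 2 higher and 0 lower, 4 higher and 0 lower, and 3 higher and 2 lower were called in W34/70 9.7 and 3 higher and 0 lower, 2 higher and 1 lower, and 1 higher and 3 lower in CBS1538 11.1. CBP6, needed for translation of cytochrome b, rose in minimal medium over day 2 in W34/70 9.7 (3.37 ± 0.46, adjusted p = 7e-06), and MZM1 did in CBS1538 11.1 (1.53 ± 0.23, adjusted p = 3.4e-05). Of 7 names for complex II assembly, which include 2 names each for some genes of the 2 sub-genomes, 2 higher and 0 lower, 2 higher and 0 lower, and 0 higher and 2 lower were called in W34/70 9.7 and 1 higher and 1 lower, 2 higher and 0 lower, and 1 higher and 1 lower in CBS1538 11.1. Of 9 coenzyme Q synthesis genes tested, 1 higher and 3 lower, 2 higher and 4 lower, and 1 higher and 4 lower were called in W34/70 9.7 and 5 higher and 0 lower, 3 higher and 1 lower, and 1 higher and 5 lower in CBS1538 11.1. Of 7 carriers, 0 higher and 3 lower, 2 higher and 4 lower, and 2 higher and 2 lower were called in W34/70 9.7 and 0 higher and 1 lower, 3 higher and 1 lower, and 4 higher and 1 lower in CBS1538 11.1. MIR1, the main mitochondrial phosphate carrier, rose in minimal medium over day 2 in W34/70 9.7 (1.83 ± 0.23, adjusted p = 2.7e-06) and CBS1538 11.1 (0.99 ± 0.22, adjusted p = 0.0013), and PIC2, its minor counterpart, fell in W34/70 9.7 (-3.65 ± 0.26, adjusted p = 7.5e-09). AAC1, an ADP/ATP carrier, rose in CBS1538 11.1 (2.44 ± 0.18, adjusted p = 2.2e-08).

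Some markers of other cell states differed between these groups. Counts of called markers are to be read beside the shares of all genes called higher and lower. In W34/70 9.7 those were 20.7% and 17.0% on day 4 over day 2, 32.8% and 32.1% in minimal medium over day 2, and 26.1% and 28.6% over day 4. In CBS1538 11.1 they were 17.2% and 14.6%, 27.3% and 21.2%, and 25.2% and 23.0% in the same order. The 13 genes known to be higher at low oxygen summed to 841 to 1089 CPM in minimal medium, 9209.6 to 11796 CPM on day 4 and 8420.3 to 11015 CPM on day 2 in W34/70 9.7, and to 10669 to 15851 CPM in minimal medium, 10247 to 11075 CPM on day 4 and 8161 to 9245 CPM on day 2 in CBS1538 11.1. The list was thus lowest in W34/70 9.7 in minimal medium, where the ATP synthase and complex IV had their largest shares. In CBS1538 11.1 the list was not low in minimal medium. There complex IV also had its largest mean share (0.119%), while the ATP synthase had its smallest (0.297%). Of the 12 tested, 0 were higher and 10 lower in minimal medium over day 2 in W34/70 9.7, and 3 were higher and 2 lower in CBS1538 11.1, with 0 and 11 over day 4 in W34/70 9.7 and 2 and 1 in CBS1538 11.1, and on day 4 over day 2, 1 and 4 in W34/70 9.7 and 2 and 1 in CBS1538 11.1. COX5B, CYC7 and AAC3 stand in this list and in the lists above. TIR1, a cell wall mannoprotein, fell in minimal medium over day 2 in W34/70 9.7 (-6.81 ± 0.41, adjusted p = 1.3e-09), and ANB1, the hypoxic form of eIF5A, fell too (-7.26 ± 0.46, adjusted p = 2.7e-09). DAN4 was at 0 in all 6 groups, TIR2 in the 3 groups of CBS1538 11.1, and AAC3 in minimal medium and on day 4 in CBS1538 11.1. The 7 retrograde response genes, known to be higher when respiration is impaired, summed to 1252 to 1287 CPM in minimal medium, 2251 to 2968 CPM on day 4 and 1565 to 1853 CPM on day 2 in W34/70 9.7, and to 959 to 1134 CPM in minimal medium, 4707 to 5052 CPM on day 4 and 2055 to 2737 CPM on day 2 in CBS1538 11.1. They were highest on day 4 in both strains. CIT2, the peroxisomal citrate synthase, fell in minimal medium over day 4 in W34/70 9.7 (-1.65 ± 0.22, adjusted p = 9.3e-06) and CBS1538 11.1 (-2.73 ± 0.23, adjusted p = 1e-07). Of the 7, 3 were higher and 1 lower on day 4 over day 2 in both strains, 2 and 4 in minimal medium over day 2 in W34/70 9.7 and 1 and 5 in CBS1538 11.1, and 1 and 4 over day 4 in W34/70 9.7 and 0 and 5 in CBS1538 11.1. The 10 sporulation and meiosis genes summed to 45.5 to 124 CPM over the 18 libraries, with 0 to 3 called higher and 0 to 4 lower in the 6 comparisons within a strain. The part of these states in the changes of the respiratory genes was not tested.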

How the data were processed

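For 18 libraries the authors deposited raw counts of reads for the features of both sub-genomes, without normalisation. Per the submitters' processing notes, STAR, SAMtools, featureCounts and DESeq2 were used with build R64 of S. cerevisiae. Not given in the sources used here are the S. eubayanus assembly, tool versions, strand use and how multi-mapping reads were counted, and coordinates are those of the deposited table. Columns were matched to libraries by title, and 0 per-sample columns were left out. Counts of both copies were summed by gene symbol and tested in R 4.3.3 with edgeR 4.0.16 (quasi-likelihood test, TMM scaling, filterByExpr with a minimum count of 10 and a minimum total of 15, 1 fit over 18 libraries and 6 groups), with Benjamini-Hochberg adjustment over all 6633 genes and a threshold of 0.05. CPM are after TMM scaling, and ± after a fold change is its standard error. Copies were also tested apart (10894 features), and their ratio in W34/70 9.7 with the library as a block, for pairs with a mean of at least 10 counts per copy. Tested on simulated counts of W34/70 9.7 day 4 over day 2, the gene test found 53% of genes changed 2-fold and 96% of those changed 4-fold over 6588 genes. The ratio test found 72% and 100% over 4034 pairs. False calls made up 4.49% of the calls in the gene test and 6.52% in the ratio test. The ratio simulation used 1 fixed spread for all pairs, so its percentages do not show how well changes are found in genes with a wider spread. The members and the 17 gene lists were chosen with earlier results of these data known. Named genes are, per comparison and complex, those with the smallest p and the largest change, members called against the majority, members whose change differed between strains and those with the smallest p for the copy ratio, and of the other lists CYC1, CYC7, COX5A, COX5B, HAP4, ROX1 and genes among the 2 with the smallest p. Alternatives were DESeq2 1.42.0 and its size factors, library totals, no filter on low counts, only the compared groups in the fit, a replicate block, each library left out, the pair of libraries without chromosome VII counts left out and, added after seeing the data, removal of the trend with gene length and leaving out the day 2 libraries of CBS1538 11.1. limma 3.58.1 was loaded by edgeR. Total counts of 5266324 to 19467656 per library make values near 1 CPM imprecise, and the limit for a count of 0 covers counting error only.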

Additional observations from a re-analysis of the deposited data

Results flagged for a closer look

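The difference between W34/70 9.7 and CBS1538 11.1 in the same change passed edgeR's test for 38 combinations of gene and comparison. Values are the log2 fold change in W34/70 9.7 minus that in CBS1538 11.1. In minimal medium over day 4 it was positive for ATP3 (2.29), SDH2 (2.16), ATP4 (2.14), ATP1 (1.89), COX8 (1.85), ATP14 (1.85), ATP17 (1.65), ATP16 (1.57), ATP2 (1.44), ATP20 (1.33), ATP7 (1.31), ATP5 (1.26), ATP18 (1.26), QCR2 (1.08) and SDH4 (1.07), and negative for COX26 (-4.78) and NDE2 (-4.18). In minimal medium over day 2 it was positive for ATP20 (2.12), ATP4 (1.75), ATP14 (1.65), COX8 (1.61), COX7 (1.55), ATP3 (1.53), COX12 (1.48), ATP17 (1.44) and QCR10 (1.36), and negative for COX26 (-5.68), NDE2 (-4.86), NDI1 (-1.02) and SDH1 (-0.93). On day 4 over day 2 it was negative for SDH2 (-1.80), SDH4 (-1.70), ATP16 (-1.64), ATP1 (-1.40), QCR2 (-1.38), ATP18 (-1.34), SDH3 (-1.31) and QCR7 (-1.01). NDE2 and COX26 differed in both comparisons with minimal medium, and the signs of their changes over day 4 are opposite in the strains. Some calls were lost in 1 or more of the 12 fits that each left out 1 library. For minimal medium over day 2, SDH1 lost its call in 8 of them, NDI1 and QCR10 in 6 each and COX7 in 5. For minimal medium over day 4, SDH4 lost it in 9 and ATP18 in 5. For day 4 over day 2, QCR7 lost it in 10, ATP18 in 7, SDH3 in 3 and ATP16 in 1. Comparisons with the day 2 libraries of CBS1538 11.1 carry the doubt about their strain label, while minimal medium over day 4 does not use them.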

How the results depend on the processing

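Of the 264 combinations of gene and comparison that were called with copies summed, 4093 values were recomputed under alternatives, of which 3790 kept direction and call, 297 kept direction and lost the call, and 6 changed sign. All 6 sign changes came from removing the length trend: ATP15 (-0.347) and QCR9 (-0.0547) for minimal medium over day 2 in W34/70 9.7, ATP7 (-0.284) and SDH3 (-0.00642) for the same comparison in CBS1538 11.1, and COX12 (-0.0326) and COX9 (-0.00532) between the strains on day 4. The cause was not tested. Counts of called genes stayed within 1.5 times under the other alternatives except for the strain difference in day 4 over day 2, which was 4 instead of 8 with only the compared groups in the fit and 4 to 9 as single libraries were left out, and for the copy ratios. The copy ratio count for day 4 over day 2 was 8 instead of 5 without the pair of libraries lacking chromosome VII counts, and leaving out single libraries, which leaves fewer samples, gave 1 to 4 for day 4 over day 2, 6 to 13 for minimal medium over day 2 and 1 to 4 for minimal medium over day 4. Scaling by library totals moved the median of all genes for day 4 over day 2 in W34/70 9.7 to 0.52 from 0.07, for minimal medium over day 2 to 0.32 from -0.01, and for the strain differences in these changes to 0.30 from -0.03 and to 0.22 from -0.06. Between the strains it moved the median to 0.48 from 0.30 on day 4, to 0.42 from 0.26 in minimal medium and to 0.12 from 0.25 on day 2. With the replicate number of the labels as a block, the counts were 22, 32, 28 for day 4 over day 2, minimal medium over day 2 and minimal medium over day 4 in W34/70 9.7, 29, 29, 17 in CBS1538 11.1, 29, 22, 16 between the strains in minimal medium, on day 4 and on day 2, and 6, 13, 17 for the strain differences, and with copies apart 30, 52, 39, 26, 27, 15 in the 6 comparisons within a strain. Pairing by replicate number was not evident. Of 27 correlations of same-numbered libraries, from -0.64 to 0.52, 6 were above 0.1, and 0 comparisons had all of theirs above it. In W34/70 9.7, day 4 against day 2 gave -0.64, -0.53 and 0.52 for replicates 1, 2 and 3. The libraries lacking chromosome VII counts, day 2 replicate 2 and day 4 replicate 1, carry unlike numbers. Whether day 2 and day 4 libraries came from the same cultures under other numbers was not tested, and the fits treat them as independent. Of the 264 calls, 4 were lost with the block (ATP16, CYT1, ATP18 and QCR7, each once). With 3 libraries a group, single-library values such as W34/70 9.7 day 4 replicate 3 weigh on many calls, and genes near 1 CPM have a large counting error.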
